A study of Mus musculus with 2 samples.

Results

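Glucose 6-phosphate that enters the pentose phosphate pathway is oxidised in the first steps of the pathway, which yield NADPH, and the sugar phosphates formed are then rearranged into ribose 5-phosphate and intermediates of glycolysis. NADPH is the reducing agent for the synthesis of fatty acids and cholesterol, for the regeneration of glutathione and thioredoxin, and for cytochrome P450 enzymes, all of which are active in liver. Besides this pathway, cytosolic malic enzyme and isocitrate dehydrogenase also reduce NADP+ to NADPH in hepatocytes. The genes described here are listed by name, and no measured value enters the rule. The members and the gene lists below were, however, chosen with earlier results of these data known, so their counts are descriptions only. The genes are G6pdx, H6pd, Pgls and Pgd of the oxidative branch, Rpia, Rpe, Tkt and Taldo1 of the non-oxidative branch, and Me1 and Idh1. Of these 10 genes, 8 were among the 8551 genes of the deposited table, and Tkt and Me1 were not analysed here.

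Liver RNA of 9-week-old male wild type mice (normal) and male db/db mice (diabetic) was compared, and the livers were collected when the lights had been on for about 3 h. Both groups are labelled C57BL/6 in background, and db/db mice, in which the leptin receptor is defective, overeat, become obese and develop diabetes. Each group had 1 digital gene expression library, so no difference between them has a replicate check, "normal liver" and "diabetic liver" below each stand for a single library, and the sources used here do not state how many livers each library was made from. The mice came from 2 suppliers, which the methods do not assign to the groups.

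Levels are given in TPM, as in the deposited table. A TPM is here 1 read of a gene per 1000000 clean tags of its library, with no division by transcript length. The table's values lay on equal steps, from which the number of reads behind each value was computed, with 10278531 clean tags in normal and 13508232 in diabetic liver. The 95% intervals below come from these reads and cover counting error only, since tags lacked molecular identifiers and may be copies of each other. Over all listed genes the median log2 ratio of diabetic to normal was 0.25, so a gene at the centre of the table was already higher in diabetic liver. Each result was therefore computed again with 4 alternative scalings of the libraries to each other, which lowered every log2 ratio by 0.25 to 0.31. Since whole liver was used, more or fewer cells of a type and more or less RNA per cell cannot be told apart.

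Of the 6 hepatocyte markers looked up, 3 were listed, with log2 ratios from -0.10 for Ttr to 1.28 for Cps1. The summed level of these markers was 7188 TPM in normal and 7468 TPM in diabetic liver. Of the markers of other liver cells, 4 of 6 Kupffer cell markers summed to 79.1 and 71.8 TPM, 5 of 5 endothelial markers to 89.5 and 80.5 TPM, 4 of 5 stellate cell markers to 93.8 and 141 TPM, and 3 of 5 cholangiocyte markers to 61.5 and 107 TPM, normal liver first. Single markers made up much of some sums. Alb held most of the hepatocyte sum, at 6801 and 6912 TPM. Cd5l held most of the Kupffer cell sum, at 64.7 and 62.9 TPM. Adgre1 was 2.05-fold lower in diabetic liver, while Clec4f (log2 ratio -0.40) and Cd68 (-0.23) lay within 1.5-fold. Spp1 held most of the cholangiocyte sum, at 57.2 and 103.1 TPM, while Krt7 (log2 ratio 0.14) and Epcam (-0.08) lay within 1.5-fold. Clec4g held the largest part of the endothelial sum, at 47.7 and 30.65 TPM, while Kdr was 1.85-fold and Lyve1 1.82-fold higher in diabetic liver. Of 4 adipocyte markers 2 were listed, and they summed to 9.05 TPM in normal and 38.4 TPM in diabetic liver. Fabp4 was at 8.56 and 26.6 TPM, and Cfd at 0.49 and 11.84 TPM. The Cfd values rest on 5 and 160 reads, with a 95% interval of the log2 ratio of 3.35 to 6.25. Of 4 erythroid markers only Alas2 was listed, at 51.9 and 44.2 TPM, and 0 of 4 lymphocyte markers were listed. The part of these cell types in the levels below was not tested.

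In tag profiling the cDNA is cut with DpnII, which recognises GATC, and in the usual form of the assay the tag next to the cut nearest the 3′ end of the transcript is counted. The table does not hold the tags, so the tag expected for each gene was read from the GENCODE M21 transcripts (GRCm38), as the 20 bases that begin at the last DpnII site of its longest coding transcript. These tags are shown because the levels below rest on short stretches of this kind, with the DpnII site in capitals.
G6pdx: GATCgagaaaagccccagcc
H6pd: GATCtcctttccggaagcaa
Pgls: GATCgtggctcccatcagtg
Pgd: GATCtgcactgagttcacta
Rpia: GATCctggcttggctttgct
Rpe: GATCagtttaatttctaatc
Taldo1: GATCataggattctgatttt
Idh1: GATCtgctatgaacacaggc

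Each of the 8 tags lay within a single exon, 5 of them in the 3′ UTR and 3 in coding sequence. The G6pdx tag was at chrX:74410418-74410437 on the minus strand, in the coding part of exon 12 of 13. That of H6pd was at chr4:149979779-149979798 on the minus strand, in the 3′ UTR, as was that of Pgd at chr4:149150221-149150240. The tag of Pgls was in coding sequence of exon 4 of 5 at chr8:71595072-71595091 on the plus strand, and that of Idh1 in coding sequence of exon 6 of 9 at chr1:65165202-65165221 on the minus strand. Tags in the 3′ UTR were also those of Taldo1 at chr7:141402906-141402925 and Rpe at chr1:66719564-66719583 on the plus strand, and of Rpia at chr6:70765934-70765953 on the minus strand. At DpnII sites in the transcripts of other annotated genes, 0 of the 8 tags were found. The last site was not the same in all transcripts of a gene, since the Idh1 tag was the last one in 2 of 7 coding transcripts and the G6pdx tag in 1 of 2. Which site was counted is not known from the table, and levels are therefore compared between libraries and not between genes. Whether the 2 libraries differed in the transcripts that carry the counted sites was not tested.

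The 8 genes went in both directions. At least 1.5-fold higher in diabetic liver were 4 of them, Idh1, Pgd, Pgls and Taldo1, where 34.4% of all listed genes were higher by this threshold. At least 1.5-fold lower were 2, G6pdx and H6pd, where 15.3% of all listed genes were lower. Rpia and Rpe lay within 1.5-fold. The median log2 ratio of the 8 genes was 0.87, and 0.62 after scaling by trimmed mean of M values (TMM), against 0.25 and 0.00 over all listed genes. The same 6 genes were at least 1.5-fold different, in the same directions, under each of the 4 scalings. With TMM the shares of all listed genes past 1.5-fold were 24% higher and 23.6% lower, and with the other scalings they lay between 21.9% and 25.6%. Under these scalings, 2 lower genes of 8 were thus close to the share of the whole table. When a false discovery rate under 0.001 was also required, from an exact binomial test on the reads of the 2 libraries, these 4 and 2 genes still passed, as did 22.5% of all listed genes in the higher and 8.07% in the lower direction. That test compares the 2 libraries and not the conditions.

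**Figure D1:**
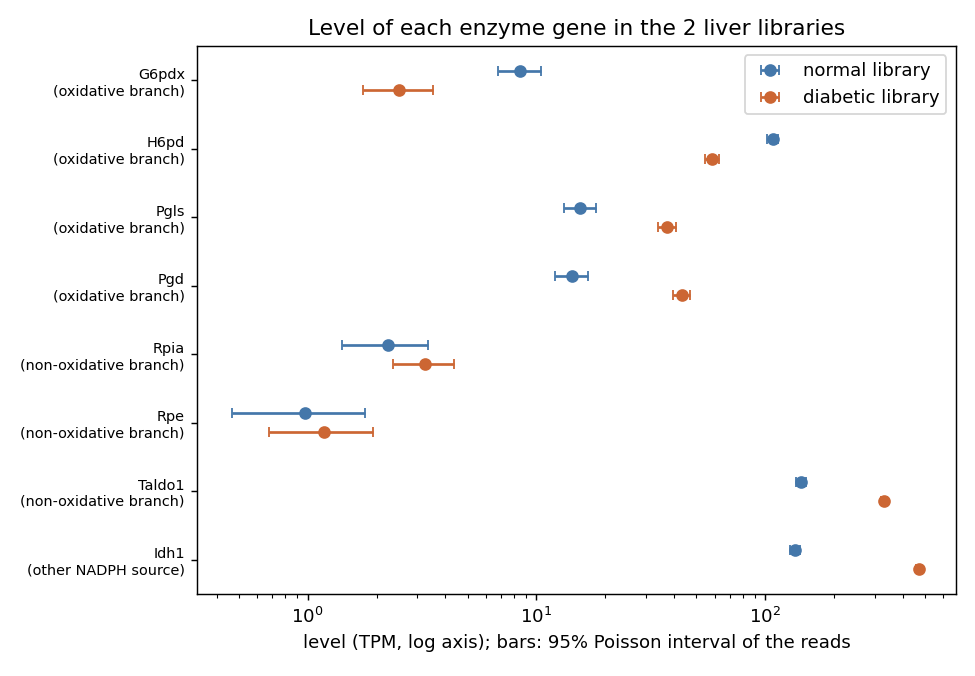
Level of each of the 8 enzyme genes in normal and diabetic liver, in TPM on a log axis, with bars for the 95% Poisson interval of the reads. G6pdx and H6pd sit lower in diabetic liver, Pgls, Pgd, Taldo1 and Idh1 sit higher, and the bars of Rpia and of Rpe overlap.

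The entry into the oxidative branch is catalysed by glucose-6-phosphate dehydrogenase, which in the cytosol is encoded by the X-linked gene G6pdx and is the main point of control of the pathway. G6pdx (Entrez 14381) measured 8.46 TPM in normal liver (95% interval, 6.78 to 10.4) and 2.52 TPM in diabetic liver (1.74 to 3.52). These levels rest on 87 and 34 reads, and the intervals do not overlap. The gene was 3.36-fold lower in diabetic liver (log2 ratio -1.75, 95% interval -2.37 to -1.16). Of all listed genes 2.02% had a ratio as low or lower. Among the 1622 genes whose mean level was within 1.41-fold of that of G6pdx, this share was 2.16%, and 90% of their log2 ratios lay between -1.19 and 1.71. Under TMM scaling G6pdx was 4.0-fold lower.

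H6pd encodes hexose-6-phosphate dehydrogenase, the enzyme of the endoplasmic reticulum that carries out the first and second steps of the branch there and supplies NADPH to 11β-hydroxysteroid dehydrogenase. H6pd (Entrez 100198) measured 107.6 TPM in normal liver and 58.6 TPM in diabetic liver, with 1106 and 791 reads. It was 1.84-fold lower in diabetic liver (log2 ratio -0.88, 95% interval -1.01 to -0.74). Of all listed genes 8.53% had a ratio as low or lower, and of the 454 genes of like level 5.51%. Under TMM scaling H6pd was 2.19-fold lower, and under a threshold of 2-fold on the deposited values it was not counted. Of the 8 genes, the 2 whose products act on glucose 6-phosphate were thus both lower in diabetic liver.

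The next steps of the cytosolic branch went the other way. Pgls encodes 6-phosphogluconolactonase, which opens the lactone ring made by the dehydrogenase. Pgls (Entrez 66171) measured 15.6 TPM in normal liver and 37.2 TPM in diabetic liver, from 160 and 503 reads. Its 2.39-fold higher level gave a log2 ratio of 1.26 (95% interval, 1.00 to 1.52). Pgd encodes 6-phosphogluconate dehydrogenase, the second NADPH-producing enzyme of the branch, which releases carbon dioxide and leaves ribulose 5-phosphate. Pgd (Entrez 110208) measured 14.3 TPM in normal liver (95% interval, 12.1 to 16.8) and 43.1 TPM in diabetic liver (39.7 to 46.7), from 147 and 582 reads. It was 3.01-fold higher (log2 ratio 1.59, 95% interval 1.33 to 1.86), and 2.53-fold higher under TMM scaling. The Pgd ratio was above or equal to that of 96.3% of the 924 genes of like level, and the Pgls ratio to that of 92.4% of 975.

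A ratio of 2 genes within a library is free of the scaling between the libraries, and a change in it means that the genes did not differ alike between these 2 libraries. The pairs were chosen after the values had been seen, most of them as a higher gene against a lower gene. They restate the ratios of the single genes and give no separate support. The ratio of Pgd to G6pdx reads was 10.1 times as high in diabetic as in normal liver (95% exact conditional interval, 6.43 to 16.1). The ratio of Pgls to G6pdx was 8.02 times as high (5.11 to 12.8), and that of Pgls to H6pd 4.39 times as high (3.58 to 5.40). The ratio of Idh1 to H6pd was 6.38 times as high (5.72 to 7.12). For Pgls to Pgd, the change of 0.794 had an interval of 0.611 to 1.03, which includes equal ratios. For Taldo1 to Rpia, the change of 1.58 had an interval of 0.907 to 2.68, which includes them as well. G6pdx was lower relative to H6pd as well, with a change of 0.547 (0.353 to 0.831).

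**Figure D2:**
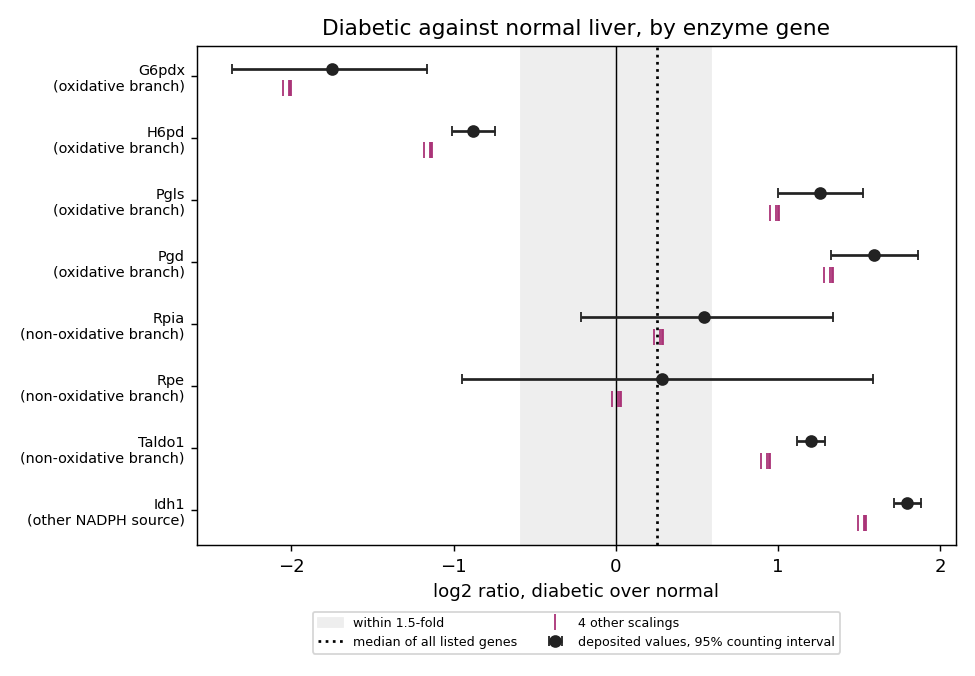
Log2 ratio of diabetic to normal for the 8 enzyme genes, with 95% counting intervals for the deposited values and short ticks for the 4 other scalings. G6pdx at -1.75 and H6pd at -0.88 lie left of the grey band of 1.5-fold, Pgls, Pgd, Taldo1 and Idh1 lie right of it, and no tick of these 6 genes enters the band.

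In the non-oxidative branch, ribose-5-phosphate isomerase and ribulose-phosphate epimerase share out ribulose 5-phosphate, and transketolase and transaldolase rearrange the products. Taldo1, which encodes transaldolase, was the only one of the 3 genes analysed in this branch with more than 100 reads in both libraries. Taldo1 (Entrez 21351) measured 143 TPM in normal liver and 330 TPM in diabetic liver, from 1473 and 4452 reads. It was 2.30-fold higher in diabetic liver (log2 ratio 1.20, 95% interval 1.12 to 1.29), and 1.93-fold higher under TMM scaling. Its ratio was above or equal to that of 85.1% of the 221 genes of like level.

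For the isomerase and the epimerase no difference was detectable at this depth. Rpia (Entrez 19895) measured 2.24 TPM in normal liver and 3.26 TPM in diabetic liver, with 23 and 44 reads. The log2 ratio was 0.54, with counting error reaching from -0.22 to 1.34. Rpe (Entrez 66646) measured 0.97 TPM in normal liver and 1.18 TPM in diabetic liver, with 10 and 16 reads. The log2 ratio was 0.28, with counting error reaching from -0.94 to 1.59, which leaves room for a change of 1.5-fold either way, and under median-ratio scaling its sign turned, to -0.02.

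Idh1 encodes the isocitrate dehydrogenase of cytosol and peroxisomes, which reduces NADP+ while it converts isocitrate to 2-oxoglutarate. Idh1 (Entrez 15926) measured 134.6 TPM in normal liver (95% interval, 127.6 to 141.8) and 467 TPM in diabetic liver (456 to 479). With 1383 and 6314 reads it had the narrowest interval of the 8 genes (log2 ratio 1.80, 95% interval 1.71 to 1.88). It was 3.47-fold higher in diabetic liver and 2.92-fold higher under TMM scaling, the highest ratio of the 8 genes. Among the 180 genes of like level its ratio stood at percentile 95.

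**Figure D3:**
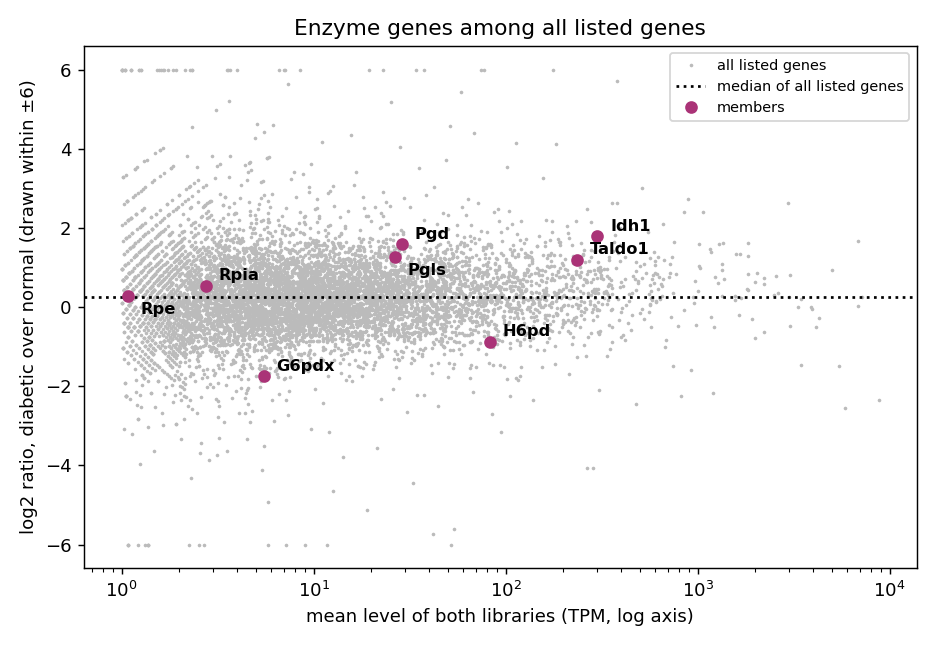
Log2 ratio of diabetic to normal against the mean level of both libraries for all listed genes (grey, drawn within ±6) and the 8 enzyme genes (labelled). Pgd and Idh1 lie near the upper edge and G6pdx near the lower edge of the genes at their level, while Rpia and Rpe lie near the dotted median of 0.25.

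The DNA before the annotated start of the genes was read from RefSeq (GRCm38.p6), as the 250 bases upstream of each of the 10 starts that the promoter table holds for the 8 genes. Searched on both strands were the E-box CACGTG, the core TGACNNNGC of the antioxidant response element, the CCAAT box, the GC box GGGCGG and the TATA box, spelled TATAAA. The E-box and the TATA box were in 0 of the 10 windows, where 6.02% and 12.4% of 32851 windows of all genes held them. TGACNNNGC was in 1 window, that of G6pdx, against 10.2% of all windows. The CCAAT box was in 4 windows, those of Idh1, Pgd, H6pd and Taldo1, against 33.8%, and the GC box in 8 windows against 32.7%. These 8 windows were rich in G and C, at 54.4% to 64.4%, where the median of all windows was 52.4%. Windows of like content were not compared. A match is only a match of letters, and nothing about binding was measured. The windows of Pgd and Taldo1, which were higher, and of G6pdx, which was lower, are shown as examples, with CCAAT and TGACNNNGC matches on either strand in capitals and none of them overlapping.
Pgd: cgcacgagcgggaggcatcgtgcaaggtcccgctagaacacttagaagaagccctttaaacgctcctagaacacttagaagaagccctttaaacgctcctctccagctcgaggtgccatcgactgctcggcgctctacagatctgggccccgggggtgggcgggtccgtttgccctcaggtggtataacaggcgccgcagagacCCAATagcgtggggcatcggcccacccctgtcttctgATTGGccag
Taldo1: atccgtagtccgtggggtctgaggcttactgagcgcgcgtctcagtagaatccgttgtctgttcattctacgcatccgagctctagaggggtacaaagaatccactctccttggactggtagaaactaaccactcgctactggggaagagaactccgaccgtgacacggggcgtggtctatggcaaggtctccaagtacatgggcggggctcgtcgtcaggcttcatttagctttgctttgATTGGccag
G6pdx: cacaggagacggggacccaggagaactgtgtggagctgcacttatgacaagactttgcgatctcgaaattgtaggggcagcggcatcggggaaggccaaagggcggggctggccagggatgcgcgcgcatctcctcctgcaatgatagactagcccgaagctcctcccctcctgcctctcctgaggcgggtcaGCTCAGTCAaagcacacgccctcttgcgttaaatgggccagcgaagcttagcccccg

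The windows are chr4:149166706-149166955 on the minus strand for Pgd, chr7:141391910-141392159 on the plus strand for Taldo1 and chrX:74428881-74429130 on the minus strand for G6pdx. Both Pgd and Taldo1 held the reverse of CCAAT beginning 9 bases before the start, and Pgd held a forward CCAAT 46 bases before it. The G6pdx match, on the reverse strand, began 57 bases before the start. A second Pgd window, at chr4:149166083-149166332, held neither a CCAAT box nor a GC box. CCAAT did not separate the genes by direction, since the window of Pgls, which was higher, held 0 and that of H6pd, which was lower, held 1.

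Of 12 other genes of sugar phosphate metabolism next to the pathway 7 were listed, and they went both ways. At least 1.5-fold higher were 2 and lower was 1, where 34.4% and 15.3% of all listed genes were, and the log2 ratios ran from -1.0 to 0.76 with a median of 0.24. Prps1 and Prps2 encode the synthetases that turn ribose 5-phosphate into phosphoribosyl pyrophosphate for nucleotides. Prps1 was at 49.4 TPM in normal and 49.5 TPM in diabetic liver. Prps2 was at 6.52 and 3.26 TPM, 2.00-fold lower in diabetic liver, with a log2 interval of -1.58 to -0.43. It did not meet the false discovery rate criterion of the exact binomial test. Prpsap1, which encodes a protein associated with these synthetases, was at 33.6 and 57.0 TPM, 1.70-fold higher. Rbks, which encodes ribokinase, was at 10.9 and 17.3 TPM, 1.58-fold higher. Under TMM scaling 0 of the 7 genes were at least 1.5-fold higher and 2 were lower, so neither higher call stood under that scaling. The 2 lower genes were Prps2 and Pgm2. Pgm2 (Entrez 66681) is named Pgm1 in the deposited table, where the row named Pgm2 is another gene. The gene of Entrez 66681 had 28 and 28 reads and a log2 interval on the deposited values of -1.20 to 0.41, which includes no change.

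Of 11 genes for other sources of NADPH, for the folate cycle and for the NAD kinases that make NADP+, 7 were listed. Of these 6 were at least 1.5-fold higher in diabetic liver, as Idh1 was, and 0 were lower, where 34.4% of all listed genes were higher and 15.3% lower. The median log2 ratio was 1.08, against 0.25 over all listed genes. Under TMM scaling 5 were at least 1.5-fold higher, where 24% of all listed genes were, and the median was 0.83. Idh2, the mitochondrial counterpart of Idh1, was at 43.3 TPM in normal and 197 TPM in diabetic liver, 4.56-fold higher. Aldh1l1, which encodes the 10-formyltetrahydrofolate dehydrogenase of the folate cycle, was at 336 and 792 TPM, 2.35-fold higher. Nnt, which encodes the mitochondrial transhydrogenase, was at 27.5 and 55.0 TPM, 2.00-fold higher.

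Mthfd1l is a mitochondrial enzyme gene of the folate cycle, and its product does not itself make NADPH. The gene had 0 reads in normal liver, which allows up to 0.292 TPM, and 45 reads (3.33 TPM) in diabetic liver. Set against a floor of 3 reads in normal liver, with the 45 reads taken without error, it was at least 11.4-fold higher on the deposited scale. The lower end of the 95% interval of its log2 ratio, from the reads, was 3.15. Mthfd1, the cytosolic gene of that cycle, was at 105.6 and 90.1 TPM, a log2 ratio of -0.23 within 1.5-fold. Nadk, which encodes the cytosolic NAD kinase, was at 50.6 and 107.3 TPM, 2.12-fold higher. Nadk2, its mitochondrial counterpart, was at 82.1 and 138.3 TPM, 1.68-fold higher on the deposited values and 1.41-fold higher under TMM scaling.

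Of 17 genes whose products use NADPH or act in lipid synthesis 13 were listed. At least 1.5-fold higher were 9 and lower were 0, where 34.4% and 15.3% of all listed genes were. Their median log2 ratio was 0.75, against 0.25 over all listed genes. With the false discovery rate required as well, 7 were higher, and under TMM scaling 6 were at least 1.5-fold higher, where 24% of all listed genes were. Nqo1, which encodes an NAD(P)H-dependent quinone reductase, had the highest ratio, from 2.72 to 22.5 TPM (28 and 304 reads), 8.27-fold higher. Fasn, which encodes fatty acid synthase, had the lowest, at 12.4 and 11.3 TPM (log2 ratio -0.14, 95% interval -0.48 to 0.22). Elovl6 (log2 ratio 1.59) and Scd1 (0.92), which encode a fatty acid elongase and a desaturase, are in the list for lipid synthesis. Both were among the genes at least 1.5-fold higher, also under TMM scaling.

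Genes of the routes that bring citrate, malate and glucose 6-phosphate to these enzymes were looked up as well. Of 8 looked up 6 were listed, 0 were at least 1.5-fold higher and 1 was lower, where 34.4% and 15.3% of all listed genes were, and their median log2 ratio was -0.27. Under TMM scaling 3 were at least 1.5-fold lower, where 23.6% of all listed genes were. The gene that was lower was Slc25a1, which encodes the mitochondrial citrate carrier, at 171.7 and 96.2 TPM, 1.79-fold lower. Acly, which encodes ATP citrate lyase, was at 225 and 171.7 TPM, 1.31-fold lower, and was 1.56-fold lower under TMM scaling. Aco1, which was also past 1.5-fold lower under TMM scaling, rested on 15 and 14 reads. Its log2 interval on the deposited values was -1.65 to 0.66, which includes no change. Mdh1, which encodes cytosolic malate dehydrogenase, was at 8.17 and 9.92 TPM, with a log2 interval of -0.12 to 0.69.

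Of 13 genes for factors known to act on these enzymes or on lipid synthesis, 10 were listed, 3 at least 1.5-fold higher and 2 lower, with a median log2 ratio of 0.28. These counts and this median were close to those of the whole table, with 34.4% higher, 15.3% lower and a median of 0.25. The highest ratio was that of Nfe2l2, which encodes the antioxidant response factor NRF2, at 33.4 TPM in normal and 151.3 TPM in diabetic liver, 4.53-fold higher. The lowest was that of Scap, which encodes the escort protein of the sterol regulatory element binding proteins, at 57.7 and 37.8 TPM, 1.52-fold lower.

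**Figure D4:**
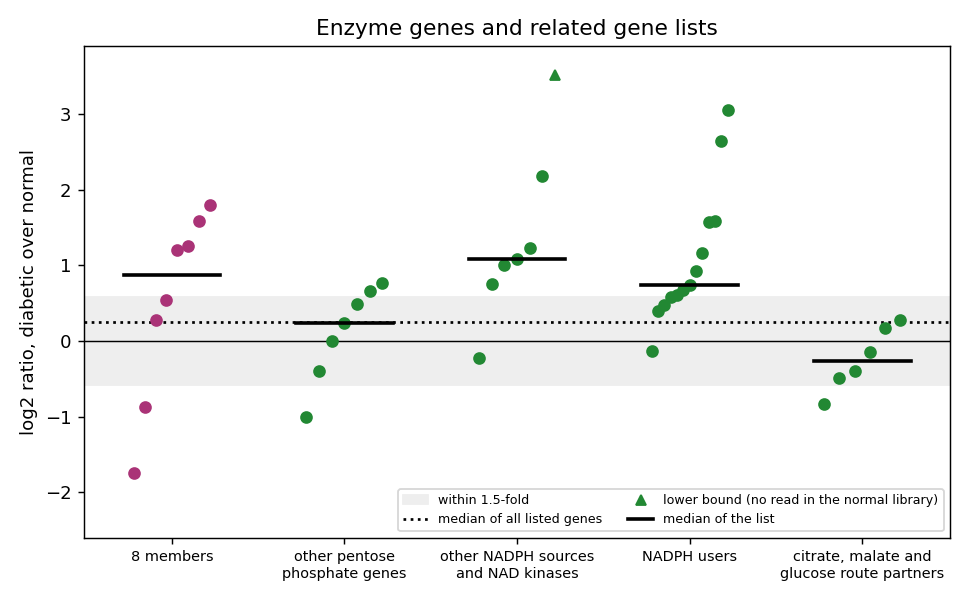
Log2 ratio of diabetic to normal for the 8 enzyme genes and for 4 related gene lists, each point a gene and each thick line the median of the list, with the triangle for Mthfd1l as a lower bound. The list of other NADPH sources, folate cycle genes and NAD kinases has a median of 1.08. That of NADPH users and lipid synthesis genes has a median of 0.75, and that of the route partners -0.27.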

How the data were processed

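The members and gene lists were chosen with earlier results of these data known. The authors cut liver cDNA with DpnII, sequenced the tags, compared high quality clean tags with RefSeq and deposited per gene a value called TPM, which is an RPM value (reads per 1000000 clean tags). They wrote 0.01 for genes without reads, and the lowest mean in the table was 1.00 TPM. The submitters' processing notes name mm9, and the aligner is not given in the sources used here. The number of unused sample columns was 0. Reads were computed from the value steps of 0.0973 and 0.0740 TPM: within 0.1 read, 8513 of 8513 values for normal and 8536 of 8537 for diabetic liver were whole. Ratios use the deposited values, and intervals are 95% Clopper-Pearson intervals of the reads. A two-sided exact binomial test with Benjamini-Hochberg adjustment over 8551 genes, with a fold of at least 1.5 and a false discovery rate under 0.001, called 2618 genes, and the Audic-Claverie test 2632. The procedure was tested on simulated reads. Lists were matched by Entrez identifier through RefSeq (GRCm38.p6), where 8317 of 8551 matched. Named are the 8 members and genes of the pathway, NADPH and route lists. Of the NADPH user and regulator lists the highest and lowest ratio at a mean of at least 10 TPM are named, with Elovl6 and Scd1 besides. Cell type markers were named at any level, to show what made up the sums. No genes were ranked by likeness of pattern, which 2 libraries do not allow. Figures were drawn with matplotlib 3.10.9. Computation used Python 3.11.15 with scipy 1.17.1, numpy 2.4.6 and pandas 2.3.3.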

Additional observations from a re-analysis of the deposited data

How the results depend on the processing

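The counts of 4 members at least 1.5-fold higher and 2 lower were the same under all 4 scalings and with 0.1 or 1 TPM added to each value. They were also the same with the exact binomial and Audic-Claverie criteria. Keeping only genes of 5 TPM or more on average could not change them, since it left out only Rpia and Rpe, which were in neither count. With a threshold of 2-fold, 4 members were higher and 1 was lower. The median log2 ratio of the members, 0.87, was 0.61 with both libraries set to equal sums, 0.62 with TMM, 0.57 with median-ratio and 0.60 with upper-quartile scaling. It was 0.86 and 0.80 with pseudocounts of 0.1 and 1 TPM, and 1.23 over the members with a mean of at least 5 TPM, which leaves out Rpia and Rpe by construction. Of 48 single ratios under the scalings and pseudocounts, 31 stayed within the counting interval and 17 moved beyond it, and none of the 6 genes past 1.5-fold changed sign. No replicate could be left out, since each group had 1 library. No paired analysis was possible because each group had 1 library. Depth limited Rpia and Rpe, with at most 44 reads.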
